A study of Oryza sativa with 6 samples.

Results

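Calcium-dependent protein kinases of rice were followed in roots exposed to hexavalent chromium, Cr(VI). The set was the 10 loci OsCPK1, 4, 6, 7, 9, 10, 12, 13, 20 and 21, taken by locus number out of 29689 loci on the array. They were read by 21 probes. Of the 10, 8 passed the filters of the main test, which covered 23479 genes, and OsCPK1 and OsCPK7 missed it because some of their spots carried a quality flag. Their values are given with the flagged spots kept.

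A calcium-dependent protein kinase joins a serine/threonine kinase domain to a calmodulin-like domain with EF hands. An autoinhibitory junction between them blocks the kinase until calcium binds, so that a single protein both senses a calcium signal and passes it on by phosphorylation. In plants the family acts in responses to drought, salt, cold, abscisic acid and pathogens, and many members are held at membranes by fatty acids on the N-terminal region. Because calcium controls activity at the protein, transcript level does not measure activity.

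Roots came from 6-day-old seedlings of cultivar TN-67. Treated seedlings received 50 µM Cr(VI), either for a short exposure, in which roots taken after 1 h and 3 h were pooled, or for 24 h, and control seedlings received water. Each of 6 two-colour arrays, 3 per exposure, carried treated RNA in red (Cy5) and control RNA in green (Cy3), with no dye swap. Values are therefore log2 ratios of treated over control, positive where Cr(VI)-treated roots had more signal. Per the labels the arrays are biological replicates; whether 1 control extract served several arrays is not given. The early times cannot be separated, because they were pooled, and a dye effect that a gene shows on every array cannot be told apart from the treatment effect in a single exposure. Whole roots were sampled, so a change in the share of cells of one type and a change in RNA per cell cannot be told apart.

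All 21 member spots were well above background in both colours on every array, and none was saturated. Median spot signals per array ran from 328 to 535.5 in green and from 263 to 438.5 in red, over local backgrounds of 36 to 73.5 and 57 to 62. The green background was 71.5 and 73.5 on short arrays 2 and 3, which shared a slide, and the 24 h arrays all lay on another slide, so slide and exposure cannot be told apart. Among all genes called, 55.9% were higher after the short exposure, 52.1% at 24 h and 42.3% in the difference between exposures. These shares were 42.6%, 47.5% and 48.8% with the scanner's processed signals, and 58.5%, 36.5% and 22.3% with median centring in place of loess. Median centring shifted the median of all genes by -0.11 at 24 h and by -0.14 in the difference.

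Most of these kinase genes were up early, and most had a lower ratio at 24 h. After the short exposure, 6 of the 8 genes tested rose (OsCPK4, 9, 10, 12, 13 and 20), OsCPK6 fell, and OsCPK21 did not pass the test. For comparison, 54.7% of all genes tested were called at a limma adjusted p under 0.05, 30.6% higher and 24.1% lower. The median log2 ratio of the 8 was 0.41, beside 0.02 over all genes. Among the 8, each read by its brightest probe, OsCPK4 alone passed 2-fold, a size reached upward by 4.6% of all genes. At 24 h, OsCPK12 and OsCPK13 were higher, OsCPK6, 9 and 21 were lower, and OsCPK4, 10 and 20 did not pass, against 64.6% of all genes called, 33.7% higher and 30.9% lower. OsCPK6 and OsCPK21 passed 2-fold downward, as 3.42% of all genes did. OsCPK12 and OsCPK13 were higher in both exposures, like 20% of all genes, and OsCPK6 was lower in both, like 15.8%. Without short arrays 2 and 3, which shared a slide, the fit had 1 short array and called 26.4% of all genes for that exposure, and the short calls of OsCPK9, OsCPK10 and OsCPK12 were lost (adjusted p = 0.092, 0.27 and 0.13 in limma).

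The 24 h ratio was below the short ratio for 6 of the 8 genes by the test of the difference itself, and above it for 0, where 38.6% of all genes were called, 22.3% lower and 16.3% higher. These were the 6 genes whose short and 24 h arrays did not overlap, which held for 52.5% of all genes. The median difference was -0.93, beside -0.03 over all genes. For OsCPK4, 6, 9 and 21 the difference was at least 2-fold, which 3.77% of all genes reached downward. OsCPK10 and OsCPK12 were not called. When flagged spots were kept, all 10 genes could be tested: 7 were higher and 2 lower after the short exposure, 3 higher and 4 lower at 24 h, and 7 had a lower ratio at 24 h than early. Background shares in that fit were 30.6% and 24.8% for the short exposure, 34.1% and 31.2% for 24 h, and, in the difference, 22.4% lower and 16.9% higher. The arrays of the exposures did not overlap for 7 of the 10, as for 52.2% of all genes.

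**Figure D1:**
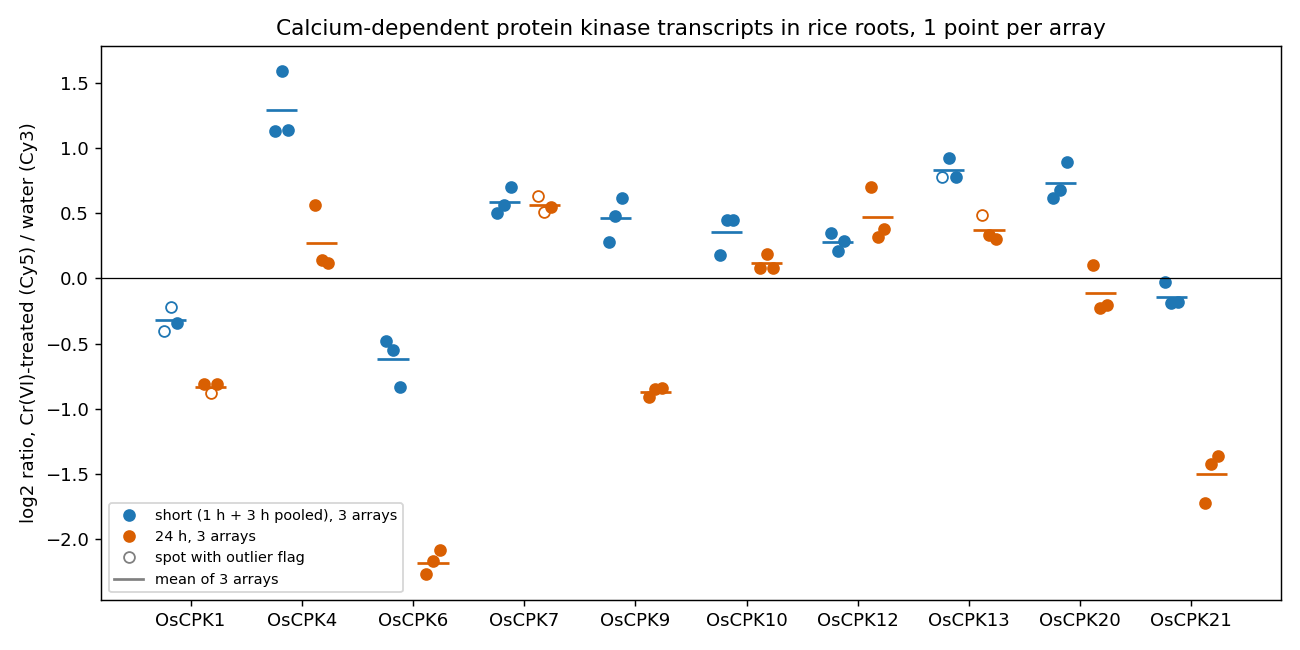
The log2 ratio of Cr(VI)-treated over water control signal (vertical axis) is plotted for each of the 10 OsCPK genes (horizontal axis), with blue points for the 3 short arrays, orange points for the 3 arrays at 24 h, open points for spots with an outlier flag, kept here, and lines for means of 3. OsCPK6 and OsCPK21 lie lowest at 24 h, followed by OsCPK9 and OsCPK1, whose 24 h points overlap. OsCPK4 lies highest after the short exposure.

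The first group holds kinases that studies in rice have tied to drought, salt or cold tolerance. OsCPK4 (Os02g0126400, chromosome 2) is known from rice for tolerance of salt and drought and for resistance to blast. Its ratios were 1.13, 1.59 and 1.14 on the short arrays and 0.56, 0.14 and 0.12 on the 24 h arrays. Every short value stood above every 24 h value, and the first 24 h array was the highest of its group. The short mean was 1.29 ± 0.26 (SD, n = 3), a 2.44-fold rise (limma adjusted p = 4.2e-05), higher than 97.1% of the genes tested. The 24 h mean was 0.27 ± 0.25 and missed the threshold (adjusted p = 0.062). The exposures differed by -1.02 (SE 0.161, adjusted p = 0.0017).

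OsCPK9 (Os03g0688300, chromosome 3), known in rice for a part in drought tolerance, changed direction. It read 0.28, 0.48 and 0.62 after the short exposure and -0.91, -0.85 and -0.83 at 24 h. The short arrays were all above the control and the 24 h arrays all below it, with the latter close together. The means of 0.46 ± 0.17 (1.38-fold higher, adjusted p = 0.00081) and -0.87 ± 0.04 (1.82-fold lower, adjusted p = 1.4e-05) both passed the test. A call of higher after the short exposure with lower at 24 h was made for 2.77% of all genes. The difference was -1.33 (SE 0.0996, adjusted p = 5.7e-05).

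OsCPK21 (Os08g0540400, chromosome 8), which takes part in abscisic acid and salt responses in rice, was near the control early and low at 24 h. The short ratios were -0.03, -0.19 and -0.19 and those at 24 h were -1.72, -1.42 and -1.36. No short value came near the 24 h values. The short mean was -0.14 ± 0.09 (adjusted p = 0.17), and it was called lower with the scanner's processed signals (-0.33, adjusted p = 0.015). At 24 h the mean was -1.50 ± 0.20, a 2.83-fold fall (limma adjusted p = 1.4e-06), with 1.34% of the genes tested below it. Between exposures the ratio differed by -1.36 (SE 0.111, adjusted p = 8e-05).

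OsCPK13 (Os04g0584600, chromosome 4) is known in rice for tolerance of cold, salt and drought. Of its brightest probe, the spots of short array 1 and of 24 h array 1 were flagged, which left 0.92 and 0.78 after the short exposure and 0.30 and 0.28 at 24 h. Both short values were above both 24 h values. The gene rose 1.8-fold after the short exposure (mean 0.85 ± 0.10, n = 2, adjusted p = 0.00019) and 1.23-fold at 24 h (mean 0.29 ± 0.02, n = 2, adjusted p = 0.014), with a difference of -0.56 (SE 0.107, adjusted p = 0.0081). With the flagged spots kept, the ratios were 0.78, 0.92 and 0.78 against 0.49, 0.33 and 0.30, and the difference was -0.46 (adjusted p = 0.0041). Leaving out 24 h array 2 or 3 left 1 value in that group, with ratios of 0.28 and 0.30 (adjusted p = 0.099 and 0.064). With median centring the 24 h call was lost (0.15, adjusted p = 0.33).

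OsCPK12 (Os04g0560600, chromosome 4), which lowers reactive oxygen species and favours salt tolerance in rice, was the only one of the 8 genes tested whose 24 h mean was above its short mean. Its short arrays gave 0.35, 0.21 and 0.29 and its 24 h arrays gave 0.70, 0.32 and 0.38. The exposures overlapped, and the first 24 h array stood well above the rest. It rose in both, by a mean of 0.28 ± 0.07 (1.22-fold, adjusted p = 0.015) and of 0.47 ± 0.20 (1.38-fold, adjusted p = 0.00086). The difference of 0.18 had a 95% interval of -0.07 to 0.44 and was not called (adjusted p = 0.22). The short call was lost without short array 1 (adjusted p = 0.078) and without short array 3 (adjusted p = 0.063).

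**Figure D2:**
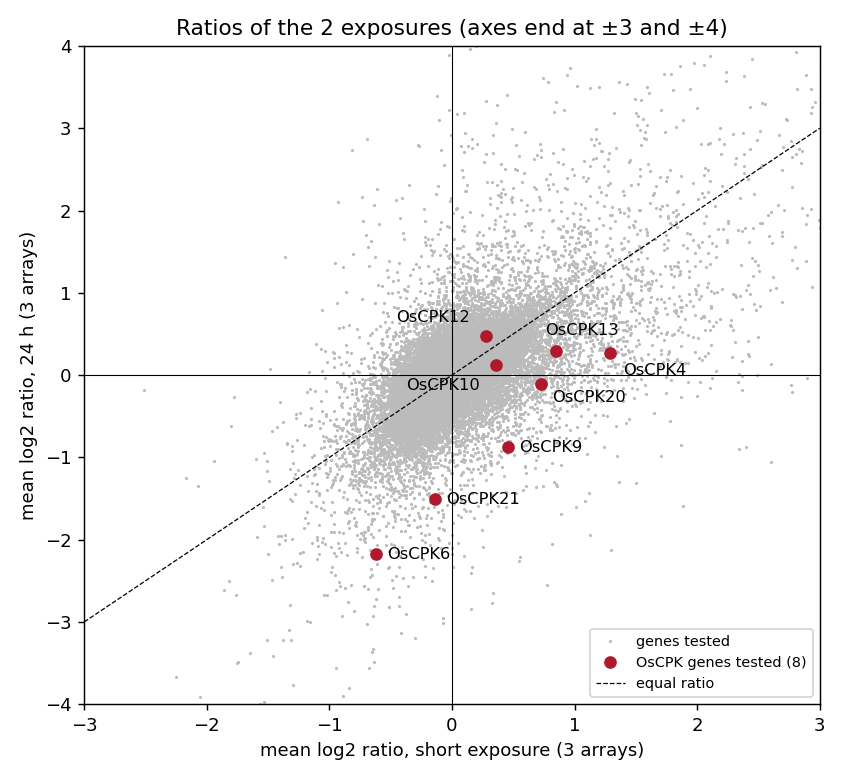
Each grey point is a gene tested, placed by its mean log2 ratio after the short exposure (horizontal axis) and at 24 h (vertical axis); the 8 OsCPK genes tested are red, the dashed line marks equal ratios, and 108 genes lie outside the axes. All OsCPK genes except OsCPK12 lie below the dashed line, and OsCPK9 sits where genes were higher early and lower at 24 h.

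The second group, OsCPK10 and OsCPK20, is known in rice for resistance to the blast fungus. OsCPK20 (Os07g0568600, chromosome 7) read 0.62, 0.68 and 0.89 after the short exposure and 0.11, -0.23 and -0.20 at 24 h. The short values were all higher than the 24 h values, which spanned the control level. It rose early by a mean of 0.73 ± 0.14 (1.66-fold, adjusted p = 0.00016) and averaged -0.11 ± 0.19 at 24 h (adjusted p = 0.28). The difference was -0.84 (SE 0.117, adjusted p = 0.00089). It was called lower at 24 h in 2 of the 23 alternatives, among them median centring (-0.40, limma adjusted p = 0.0066).

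OsCPK10 (Os03g0788500, chromosome 3) moved less. It had ratios of 0.18, 0.45 and 0.45 on the short arrays and 0.09, 0.19 and 0.08 on the 24 h arrays. Short array 1 fell within the 24 h range, so the exposures overlapped. The early rise was 1.29-fold (mean 0.36 ± 0.16, adjusted p = 0.0026), and the 24 h mean of 0.12 ± 0.06 was not called (adjusted p = 0.16). The difference of -0.24 had an unadjusted 95% interval of -0.47 to -0.02 and an adjusted p of 0.083, and it was called without short array 1 (-0.33, adjusted p = 0.026) and with median centring (-0.50, adjusted p = 0.03).

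For the remaining members no stress role is given here. OsCPK6 (Os02g0832000, chromosome 2) had the lowest ratio of all 10 genes in both exposures. It read -0.48, -0.55 and -0.83 early and -2.27, -2.17 and -2.08 at 24 h. Every array was below the control, and every 24 h array was far below every short array. The mean fell from -0.62 ± 0.19 (1.54-fold lower, limma adjusted p = 0.00028) to -2.17 ± 0.10 (4.51-fold lower, limma adjusted p = 1.9e-07). At 24 h, 0.439% of the genes tested were lower still. The difference of -1.55 (SE 0.11, adjusted p = 4.5e-05) was the largest among the 8 genes tested.

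OsCPK1 (Os01g0622600, chromosome 1) had 1 probe, and its spots on short arrays 1 and 2 and on 24 h array 2 carried an outlier flag. With them kept, the ratios were -0.40, -0.22 and -0.34 after the short exposure and -0.81, -0.88 and -0.81 at 24 h. All were below the control, and the exposures did not overlap. The means were -0.32 ± 0.09 (1.25-fold lower, adjusted p = 0.0019) and -0.83 ± 0.04 (1.78-fold lower, adjusted p = 5.5e-06), with a difference of -0.52 (SE 0.0813, adjusted p = 0.0016). The unflagged spots alone gave -0.34 on short array 3 and -0.82 and -0.83 on 24 h arrays 1 and 3.

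OsCPK7 (Os03g0128700, chromosome 3) was higher than the control in both exposures. The brightest of its 6 probes was flagged on 24 h arrays 1 and 2, and with these spots kept it read 0.50, 0.56 and 0.70 after the short exposure and 0.63, 0.51 and 0.55 at 24 h. The exposures overlapped throughout. The gene rose 1.5-fold early (mean 0.59 ± 0.10, adjusted p = 9.4e-05) and 1.48-fold at 24 h (mean 0.56 ± 0.06, adjusted p = 6.9e-05). The difference of -0.03 had a 95% interval of -0.22 to 0.17 (adjusted p = 0.82).

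Where a locus had several probes, each was also fitted on its own among 33275 probes tested. Probes of a locus read the same RNA on the same arrays, so they are not separate replicates. The share called among all probes is not given here. In the fit by gene, 54.7% of all genes were called after the short exposure, 64.6% at 24 h and 38.6% in the difference. The 3 probes of OsCPK4 gave short means of 1.29, 1.25 and 1.28 and 24 h means of 0.27, 0.40 and 0.33. The second of these passed the test at 24 h (adjusted p = 0.021), and all 3 differences were called, with -0.85 (adjusted p = 0.0056) and -0.95 (adjusted p = 0.005) for the dimmer pair. The 3 probes of OsCPK4 therefore had the same order of exposures.

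The dimmer probes of OsCPK7 read higher than its brightest one. The 4 of them that could be tested had short means of 0.93 to 1.06 and 24 h means of 0.79 to 0.94, all called higher. The difference between exposures was called for 1 of the 4, probe 6 (-0.27, adjusted p = 0.03), while probes 2, 4 and 5 gave -0.12, -0.17 and 0.00 (adjusted p = 0.29, 0.24 and 0.98).

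OsCPK13 had 3 probes that could be tested, with short means of 0.85, 0.76 and 1.01 and 24 h means of 0.29, 0.28 and 0.20. All 3 differences were called, and the 24 h mean of probe 4 was not (adjusted p = 0.16). The 2 probes of OsCPK20 disagreed on the level. Its dimmer probe gave -0.17, 0.34 and 0.25 early and -0.51, -0.82 and -0.78 at 24 h, so the short mean of 0.14 was not called (adjusted p = 0.28) and the 24 h mean of -0.70 was (adjusted p = 0.00044), the reverse of the brighter probe. The difference between exposures was -0.84 for both, with an adjusted p of 0.0027 for the dimmer one.

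**Figure D3:**
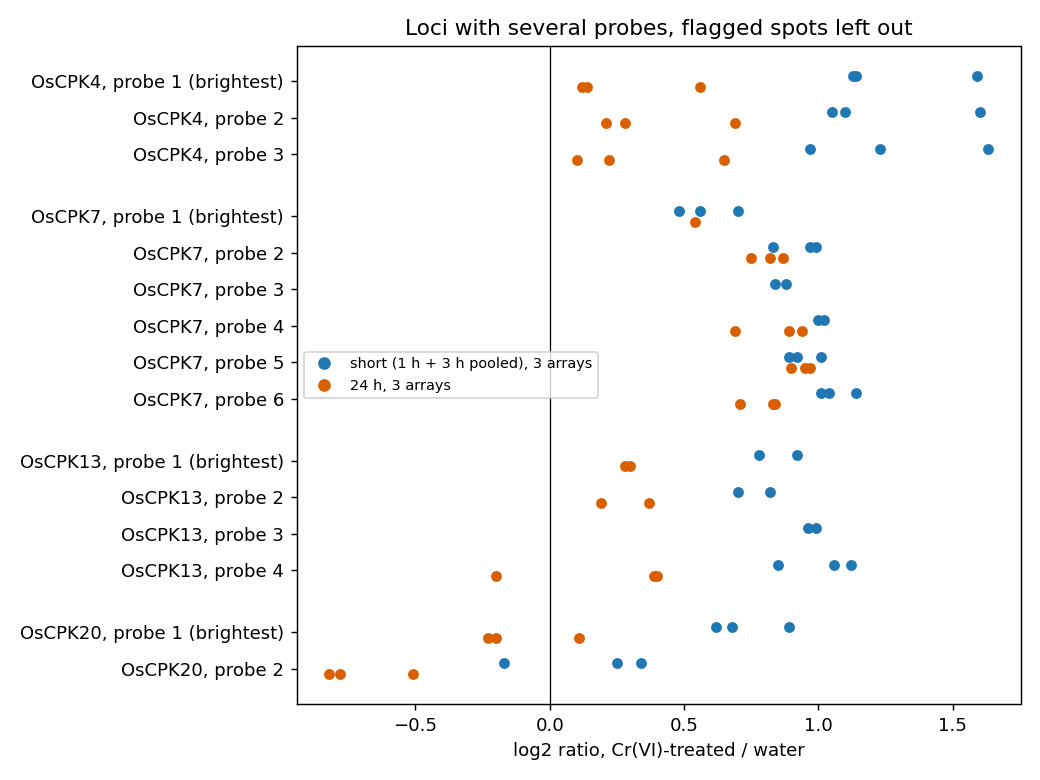
Log2 ratios of treated over water signal (horizontal axis) are shown for each probe (rows) of the 4 genes with several probes, with blue points for short arrays and orange points for 24 h arrays and flagged spots left out. Short values of OsCPK4 and OsCPK13 lie to the right of 24 h values on every probe with both, those of OsCPK7 overlap or lie close, and the probes of OsCPK20 are offset from each other.

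A difference between ratios can come from either colour, so each was compared between the 24 h and the short arrays after quantile normalization. The exposures lay on different slides, so within a colour slide and exposure cannot be told apart. In the water control (Cy3), 0 of the 8 genes were called by limma, where 4.54% of all genes were. At an unadjusted p under 0.05 the count was 4 of 8, where 27.7% of all genes passed, with log2 differences of 0.47 for OsCPK4, 0.59 for OsCPK9, 0.46 for OsCPK12 and 0.32 for OsCPK20 (limma unadjusted p = 0.017, 0.025, 0.025 and 0.031). Their adjusted p ran from 0.11 to 0.14.

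In the treated roots (Cy5), 6 of the 8 genes were called, 5 lower and 1 higher, where 38% of all genes were called, 19.4% lower and 18.6% higher. OsCPK6 fell by 1.51 (SE 0.135, adjusted p = 0.00015) and OsCPK21 fell by 1.38 (SE 0.145, adjusted p = 0.00031) on the log2 scale. For OsCPK6 the treated signals were 9.48, 9.39 and 9.09 on the short arrays and 7.70, 7.78 and 7.95 at 24 h, and its control signals were 10.39, 10.41 and 10.41 against 10.22, 10.27 and 10.32. The treated signals separated widely, while the controls differed by -0.14 (adjusted p = 0.35).

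For OsCPK21 the treated log2 signals were 8.64, 8.92 and 8.81 early and 7.58, 7.51 and 7.14 at 24 h, with no overlap. OsCPK9 gave -0.67 in the treated colour (adjusted p = 0.034) beside 0.59 in the control, and OsCPK4 gave -0.51 (adjusted p = 0.035) beside 0.47. As point estimates the colours were of like size, but the control differences were not called (limma adjusted p = 0.13 for OsCPK9 and 0.11 for OsCPK4). OsCPK20 fell by 0.46 (adjusted p = 0.019).

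OsCPK12 was higher on the 24 h arrays in both colours, by 0.64 in the treated (limma adjusted p = 0.029) and 0.46 in the control. Its ratio differed by 0.18 between exposures, which was not called (limma adjusted p = 0.22). OsCPK10 (-0.34, adjusted p = 0.10) and OsCPK13 (-0.16, adjusted p = 0.42) were not called in the treated colour. The treated calls of OsCPK6 and OsCPK21 held in all 10 alternatives run on the channels, whereas those of OsCPK4 and OsCPK9 were each lost in 6, that of OsCPK12 in 4 and that of OsCPK20 in 3. Without short array 3, 2 of 8 members were called in the treated colour (28.6% of all genes), without 24 h array 2 it was 2 of 9 (26.3%), and without 24 h array 3 it was 3 of 8 (30.5%).

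**Figure D4:**
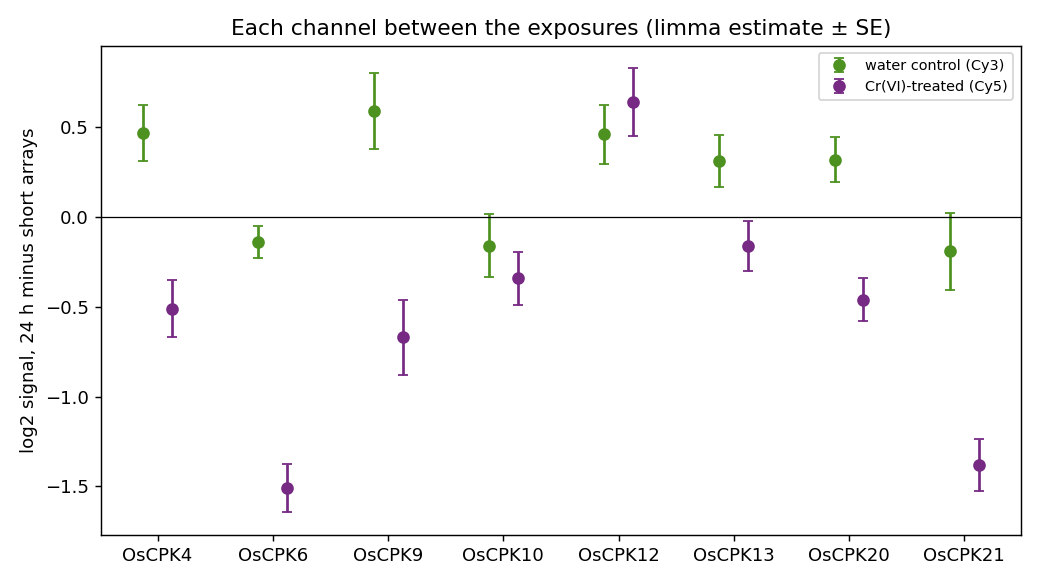
The limma estimate of log2 signal on 24 h arrays minus short arrays (vertical axis, bars are ± SE, 3 against 3 arrays, or 2 against 2 for OsCPK13) is shown for the 8 OsCPK genes tested, in green for the water control and in purple for Cr(VI)-treated roots. OsCPK6 (-1.51) and OsCPK21 (-1.38) stand far below 0 in the treated roots while their controls lie near 0, and OsCPK4, OsCPK9 and OsCPK20 have controls above 0 and treated values below it.

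Among the 8 genes tested, likeness was measured as the root mean square difference of the log2 ratios over the arrays both genes had. OsCPK10 was closest to OsCPK13 (0.31 over 4 arrays), OsCPK12 (0.32 over 6) and OsCPK20 (0.34 over 6). OsCPK6 and OsCPK21, the genes lowest at 24 h, were 0.60 apart, and OsCPK4 and OsCPK6 were the farthest pair at 2.21. These are descriptions of 6 arrays and carry no test.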

How the data were processed

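RNA of Cr(VI)-treated rice roots (Cy5) and of water controls (Cy3) was compared on 6 two-colour arrays. Per the file headers, Agilent Feature Extraction 10.7.1.1 wrote the spot and local background intensity values, as medians on a linear scale, that the authors deposited. Deposited log10 ratios were not used. The deposited table of log2 ratios for 42475 probes matched log2 of the processed red over green signals, and its column medians ran from -0.178 to 0.0385. It served as an alternative.

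From the medians, background was corrected by normexp (offset 50) and arrays were normalized by loess in limma 3.58.1 (R 4.3.3), with control and outlier spots at weight 0. Outlier spots, 163 to 1936 of 43734 per array, were left out, spots of a probe were averaged, and the brightest probe of a locus was kept. A gene needed a signal well above background in either colour on at least 3 of 6 arrays and at least 2 values per exposure. A limma model (lmFit, eBayes, 4 residual and 4.36 prior degrees of freedom) tested each exposure against 0 and their difference, with Benjamini-Hochberg adjustment over 23479 genes and a threshold of 0.05. Each colour was tested likewise after quantile normalization. The offset pulls dim ratios toward 0, and the number of arrays limits the precision.

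All 10 loci are named. The members and all lists were chosen with earlier results of these data known. Lists of other calcium signalling genes and of tissue markers could not be filled, because the files give locus numbers without descriptions and the RefSeq table at hand (ASM3414082v1) does not pair them, so the root label was not checked against markers. That table held 9 of the 10 OsCPK names, all 9 on the chromosome that the locus number gives. Probe tags name coding sequence with 3′ UTR for 18 of the 21 probes and coding sequence for 1. The other 2, the only probes of OsCPK1 and OsCPK12, carry a tag whose meaning is not known. No probe or gene sequence was used here. Same-numbered arrays of the exposures deviated with correlations of -0.235, -0.116 and -0.100, so the numbers were not taken as pairs. Keeping flagged spots and fitting each probe were added after seeing the data.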

Additional observations from a re-analysis of the deposited data

Results flagged for a closer look

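For 6 of the 8 genes tested, the 24 h response differed from the short response by limma's test of the difference itself. Of all genes tested, 38.6% were called in that difference, 22.3% lower and 16.3% higher. The log2 differences, 24 h minus short, were -1.02 for OsCPK4, -1.55 for OsCPK6, -1.33 for OsCPK9, -0.56 for OsCPK13, -0.84 for OsCPK20 and -1.36 for OsCPK21. The exposures lay on different slides, and the part of the slide in these differences cannot be told apart.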

How the results depend on the processing

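Of 549 member ratios recomputed under the alternatives, 531 kept their side of the threshold, 8 lost a call and 10 gained one. The sign turned in 2, both uncalled and with median centring: OsCPK4 (-0.01) and OsCPK10 (-0.17) at 24 h. The differences of OsCPK4 (-1.27 to -0.86), OsCPK6 (-1.96 to -1.40), OsCPK9 (-1.53 to -1.15), OsCPK20 (-1.10 to -0.73) and OsCPK21 (-1.70 to -1.11) stayed called in all 23 alternatives and that of OsCPK13 (-0.91 to -0.46) in the 22 that gave it a value. The deposited table of ratios nearly repeats the processed signals, with 8288 and 8287 genes called in the difference, so these alternatives are not independent. Averaging all probes of a locus called 8 of 9 members and 64.6% of all genes at 24 h. Without the short arrays on slide 2, which leaves 1 short array assumed to vary like the others, 6220 genes (26.4%) and 3 of 7 members were called after the short exposure and 4488 genes (19.1%) in the difference, and OsCPK9 (0.28, adjusted p = 0.092), OsCPK10 (0.18, adjusted p = 0.27) and OsCPK12 (0.35, adjusted p = 0.13) lost their short calls, with fewer samples. OsCPK4 at 24 h was called in 4 alternatives. Processed signals gave 1851 genes 2-fold higher and 735 lower after the short exposure (1080 and 150 with loess), 1867 and 1734 at 24 h (1143 and 803), and 941 and 1538 in the difference (515 and 886). The control channel was least stable: 1066 genes were called there after quantile normalization, 3793 (16.2%) with median scaling, which also called 1 member, OsCPK4 (0.56), 21 with processed signals, and 0 to 3932 without 1 array, with 0 to 1 members. In the treated channel 2 to 5 members of 8 or 9 tested and 6101 to 9708 genes (26.3% to 41.6%) were called without 1 array. The causes were not tested. With the replicate number as a block, 11400, 14066 and 7483 genes and the same 7, 5 and 6 members were called after the short exposure, at 24 h and in the difference, with 0 genes in the control channel and 6922 genes and 5 members in the treated channel. Aquantile after loess is counted among the 23 alternatives and the 549 ratios, although it leaves ratios unchanged by construction and could not move a call. Dim genes are limited by their signal over background, and all members were flagged as well above it. Of the brightest probes of the members, that of OsCPK12 was the dimmest. Its signals were 183.5 to 426 in red and 197.5 to 392 in green. The treated signals of OsCPK6 and OsCPK21 at 24 h still went down to 187 and 131.5, over backgrounds of 56.5 and 67. Across the alternatives their 24 h ratios ran from -2.78 to -1.96 and from -1.94 to -1.22.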
